A study of Mus musculus with 48 samples.

Results

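Female mice of a line bred for high ethanol preference were compared with females of the line bred for low preference. The animals came from the HS-CC stock, an outbred heterogeneous stock made from collaborative cross founders, at selection generation 4. The comparison took every library labelled gender F, which gave 24 of the 48 libraries, 12 from High females and 12 from Low females, and the fits used these libraries alone. The other 24 libraries, 12 High males and 12 Low males, served only to set the female differences beside the male ones. Each library held poly(A)-selected RNA from the nucleus accumbens shell of 1 mouse, cut out by laser microdissection. The labels gave no age, no estrous stage, no litter and no ethanol exposure for any group, and named no treatment. Each line was 1 breeding population, so selection and chance drift of alleles cannot be told apart, and a p-value weighs a difference only against the variation among these particular animals.

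The nucleus accumbens shell is the ventral striatal region in which dopamine from the midbrain meets cortical, hippocampal and amygdala input, and it takes part in the rewarding effect of ethanol and other drugs. Most of its neurons are GABA-releasing spiny neurons, which carry either D1 or D2 dopamine receptors, and a small population of interneurons regulates them. Selective breeding for drinking shifts the frequency of many alleles at the same time. Genes that lie close together on a chromosome are inherited together and can differ between lines as a block.

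Values are normalised counts as deposited, rounded to whole numbers, and column totals ran from 13651830 to 14561911 in High females and from 13579559 to 14219246 in Low females. Between 19708 and 20580 genes were above 0 in High females, and between 20125 and 20888 in Low females. Each library's median correlation with the others was 0.973 to 0.98 in High females and 0.974 to 0.98 in Low females; the lowest was High female replicate 8. Xist was at 9183 or more in every female library and at 207 or less in every male library. The Y-linked genes Kdm5d, Ddx3y, Eif2s3y and Uty summed to at most 40 in females and at least 2518 in males. Markers of the dissected region were present in all 24 libraries. The summed markers of the shell and ventral striatum ran from 13792 to 21519 in High females and from 11911 to 19225 in Low females. Slc17a7, the vesicular glutamate transporter of cortical neurons, was at 5 to 217 in High females, with a median of 14.5, and at 7 to 862 in Low females, with a median of 18. Some Low dissections thus read higher for a cortical gene, and its part in the results below was not tested.

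The first question was which genes differed between the lines in females. Of 15370 genes tested with limma on log2(normalised count + 0.5 ppm), where 1 ppm is 14.04 normalised counts, 1 passed a Benjamini-Hochberg adjusted threshold of 0.05, which is what called means here (0.00651% of those tested). That gene, Acaca, rose in High females. At an unadjusted p under 0.05 there were 833 genes (5.42%), of which 401 were higher in High females (2.61%) and 432 lower (2.81%). High females were above Low females in 48.8% of all genes tested, and no gene had groups that did not overlap (0%). The share at an unadjusted p under 0.05 is close to what that threshold lets through by itself, and no gene named below other than Acaca passed the adjusted threshold for its level in this comparison, whether its p is given adjusted or unadjusted.

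Acaca (ENSMUSG00000020532) encodes acetyl-CoA carboxylase alpha, the enzyme that makes malonyl-CoA in the committed step of fatty acid synthesis. Its first listed exon starts at position 83943174 of chromosome 11 (mm9). It had 255, 361.5 and 500 normalised counts as lowest, median and highest in High females, against 158, 217 and 306 in Low females. All 12 High females lay above the Low median and 8 lay above every Low female. The means were 362 ± 70.4 in High females and 228 ± 46.7 in Low females (SD, n = 12 each). The difference was 0.65 ± 0.11 on the log2 scale (SE), a 1.57-fold higher level, with an adjusted p of 0.0373 in limma. Leaving out 1 mouse at a time gave adjusted p-values from 0.0105 to 0.104 and a log2 difference from 0.61 to 0.7, and Acaca was called in 9 of the 24 fits. It was not called without High female replicate 2, 3, 4, 6, 8, 9, 10 or 11, or without Low female replicate 1, 4, 6, 7, 8, 9 or 11.

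The Acaca difference lay mostly in 1 exon. The deposited exon table lists 61 exons for the gene, and the last of them, which starts at 84213062, had 188, 241.5 and 350 normalised counts as lowest, median and highest in High females, against 59, 135 and 194 in Low females. The summed other exons had 61, 107 and 186 in High females, against 72, 104 and 132 in Low females. These ranges overlap almost fully. The log2 ratio of the group means was 0.64 over all exons and 0.19 with the last exon left out. The last exon's share of the gene was higher in High females by 0.88 ± 0.25 on the log2 scale (SE), with an unadjusted p of 0.00135 and an adjusted p of 0.918 over all exons in limma. In transcript sequence, 32.6% of the 25-base words of Acaca also occur in Gm5182, a copy elsewhere in the genome that was not analysed here, so reads of Acaca and of this copy could be exchanged.

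In males the same gene had 247, 280.5 and 416 normalised counts as lowest, median and highest in High males, against 157, 238.5 and 369 in Low males. The male difference was 0.30 ± 0.11 on the log2 scale (SE), with an unadjusted p of 0.0143 and an adjusted p of 0.683 in limma. The female difference exceeded the male one by 0.35 ± 0.16 (SE), with an unadjusted interaction p of 0.0346 and an adjusted p of 1. The difference between the sexes therefore failed the correction.

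**Figure D1:**
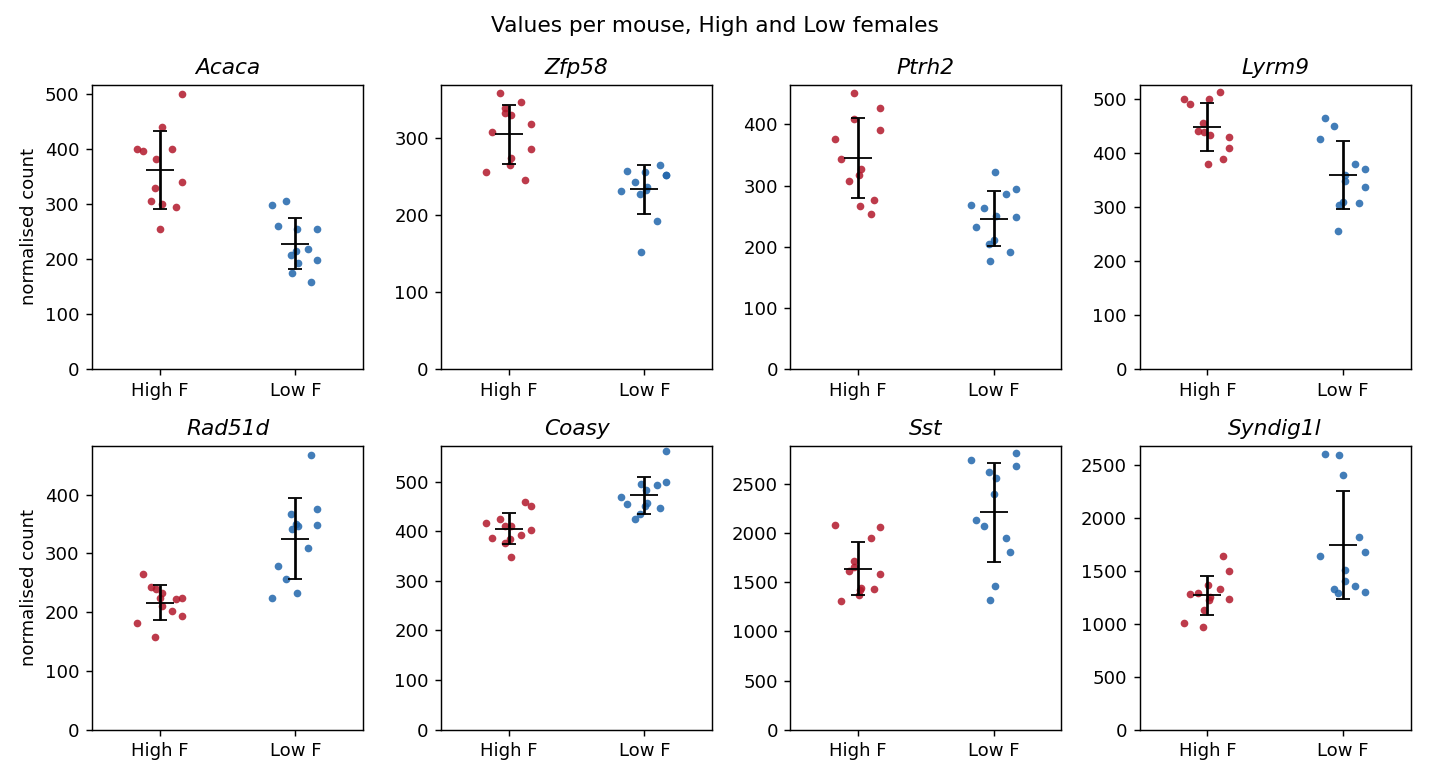
Normalised count per mouse (linear axis from 0) of 8 genes in 12 High females and 12 Low females. Points are mice, and the bar with whiskers is the mean ± SD. Acaca was called, and the other 7 genes did not pass the adjusted threshold; in every panel the groups overlap.

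Acaca was set beside the rest of its pathway. Of 22 tested genes of fatty acid synthesis and binding, 1 was called and 4 were at an unadjusted p under 0.05 (18.2%, against 5.42% of all genes), 3 higher and 1 lower in High females. Acaca itself is the 1 called and is among the 4. The list was chosen with earlier results of these data known, so its count is no independent evidence. The median log2 difference of the list was -0.04, against 0 for all genes. Fabp5, a fatty acid binding protein of the cytosol, had 1065, 1319 and 1768 normalised counts as lowest, median and highest in High females, against 654, 922 and 1625 in Low females. Its log2 difference was 0.49 ± 0.14 (SE), with an unadjusted p of 0.00142 that did not pass adjustment. Elovl1, which lengthens very long fatty acids, differed by 0.40 ± 0.18 on the log2 scale (SE; unadjusted p = 0.0308). Fasn, the fatty acid synthase that uses the malonyl-CoA made by Acaca, differed by -0.09 ± 0.071 (SE; unadjusted p = 0.212). Acacb, the mitochondrial carboxylase paralog, had 66.6 ± 29.3 normalised counts in High females and 68.6 ± 25.8 in Low females (SD, n = 12 each).

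The DNA repair genes held the next smallest p. Rad51d (ENSMUSG00000018841) encodes a protein that takes part in repair of broken DNA by homologous recombination. Its lowest listed exon start is position 82685466 of chromosome 11 (mm9). It had 158, 223.5 and 265 normalised counts as lowest, median and highest in High females, against 225, 344.5 and 468 in Low females. All 12 High females lay below the Low median, and 6 lay below every Low female. The log2 difference was -0.55 ± 0.10 (SE), with an unadjusted p of 8.68e-06 and an adjusted p of 0.0667 in limma. In males it was -0.37 ± 0.077 (SE), with an unadjusted p of 4.72e-05. With the exon of largest value left out, the log2 ratio of the female means was -0.55, against -0.58 with all exons, so the whole gene carried the difference. Rad51d was called when all 48 libraries entered 1 fit.

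Rad51c, another homologous recombination gene on chromosome 11, ran the other way. It had 33, 57 and 79 normalised counts as lowest, median and highest in High females, against 16, 35.5 and 51 in Low females. The log2 difference was 0.63 ± 0.14 (SE), with an unadjusted p of 0.000173 and an adjusted p of 0.273 in limma. Pcna, the sliding clamp of DNA polymerase, differed by 0.37 ± 0.10 on the log2 scale (SE; unadjusted p = 0.00123) and by 0.42 in males. Mlh3, a mismatch repair protein, differed by 0.35 ± 0.10 (SE; unadjusted p = 0.00203) and by 0.32 in males. Of 24 tested genes of DNA repair and the replication clamp, 4 were at an unadjusted p under 0.05 (16.7%, against 5.42% of all genes), 3 higher and 1 lower, and the list median was -0.01. The list was chosen with the line difference of Rad51d and others in these data already known, so its count is no independent evidence.

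Beyond Acaca and Rad51d, the 12 genes of smallest p in each direction were followed, at a mean level of 5 ppm or more. Zfp58, a zinc finger protein gene on chromosome 13, had 245, 312 and 358 normalised counts as lowest, median and highest in High females, against 152, 239 and 265 in Low females. All 12 High females lay above the Low median and 9 above every Low female. Its log2 difference was 0.38 ± 0.082 (SE; adjusted p = 0.243 in limma). In transcript sequence, 48.2% of its 25-base words lie in the overlapping gene Gm26965, so reads could belong to either. Ptrh2, a mitochondrial peptidyl-tRNA hydrolase, had 253, 335.5 and 451 normalised counts in High females, against 177, 249 and 323 in Low females, in the same order of lowest, median and highest. It differed by 0.48 ± 0.10 (SE; adjusted p = 0.243). Its last exon held nearly all of its value, with means of 335 ± 65.7 in High and 236 ± 43.7 in Low females (SD). The other exons summed to 10.6 ± 2.43 and 10.5 ± 4.42, under 1 ppm. Their log2 ratio of 0.01 therefore cannot show whether the difference was confined to the last exon. The share of that exon differed by 0.39 ± 0.21 (SE; unadjusted p = 0.0647 in limma). Lyrm9, a LYR-motif protein gene, differed by 0.33 ± 0.081 (SE; adjusted p = 0.378), and without its last exon the ratio turned to -0.40.

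Crlf3, a cytokine receptor-like factor, had 99, 159 and 194 normalised counts as lowest, median and highest in High females, against 82, 116.5 and 153 in Low females. Ska2, a subunit of the complex that ties kinetochores to spindle microtubules, had 204, 248.5 and 299 in High females, against 167, 202 and 240 in Low females. Dnah2, an axonemal dynein heavy chain, had 132, 210.5 and 296 in High females, against 110, 138 and 235 in Low females. For these 3 genes the log2 difference was 0.41 ± 0.10, 0.29 ± 0.072 and 0.50 ± 0.13 (SE), in the order named, and it stayed near that size without the exon of largest value. Tmprss7, a transmembrane serine protease, had a wider difference, with 38, 102 and 164 normalised counts in High females, against 21, 50.5 and 104 in Low females, and a log2 difference of 0.90 ± 0.24 (SE). Tpd52, a vesicle trafficking protein, differed by 0.36 ± 0.095 (SE), and its last exon carried most of it. None of these passed the adjusted threshold, with adjusted p-values of 0.378 to 0.505 in limma.

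Coasy encodes the bifunctional enzyme of the last steps of coenzyme A synthesis, and Acaca uses acetyl-CoA. It had 349, 406 and 459 normalised counts as lowest, median and highest in High females, against 425, 463.5 and 562 in Low females. All 12 High females lay below the Low median and 9 below every Low female, which is a tight separation for a log2 difference of -0.22 ± 0.05 (SE; adjusted p = 0.273 in limma). All 9 of its exons with a mean of 10 or more pointed the same way. In males the difference was -0.03, with an unadjusted p of 0.756. The unadjusted interaction p was 0.0607.

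Slc43a2, a transporter of large neutral amino acids, had 332, 441 and 572 normalised counts as lowest, median and highest in High females, against 443, 597.5 and 805 in Low females. Its log2 difference was -0.43 ± 0.10 in females (adjusted p = 0.298 in limma) and -0.11 ± 0.093 in males (SE). Srr, the serine racemase that makes the NMDA receptor co-agonist D-serine, had 902, 1080 and 1435 in High females, against 1115, 1301 and 1433 in Low females. Of the High females, 1 was above every Low female, and 9 were below every Low female. The difference was -0.22 ± 0.062 (SE; adjusted p = 0.518), and in transcript sequence 24.6% of Srr words lie in the overlapping gene Tsr1. Fbxl20, the substrate receptor of a ubiquitin ligase, differed by -0.20 ± 0.054 (SE; adjusted p = 0.518).

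Peak1, a pseudokinase of the cytoskeleton, and Parvb, the integrin adaptor beta-parvin, each differed by -0.38 on the log2 scale, with adjusted p-values of 0.298 and 0.378 in limma. Parvb had 123, 169.5 and 276 normalised counts as lowest, median and highest in High females, against 185, 220.5 and 292 in Low females, and differed by -0.29 ± 0.11 in males (SE). Gpr25, a G protein-coupled receptor, differed by -0.35 ± 0.088 in females (adjusted p = 0.378) and by -0.37 ± 0.17 in males (SE). Olfml3, a secreted matrix glycoprotein that microglia express, had 56, 116.5 and 226 in High females, against 122, 201 and 278 in Low females. Its female difference of -0.79 ± 0.20 stood beside a male difference of -0.03 ± 0.21 (SE), with an unadjusted interaction p of 0.0138 and an adjusted p of 1 in limma. The unnamed gene ENSMUSG00000048769 differed by -0.39 ± 0.11 (SE; adjusted p = 0.567).

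Of the genes at an unadjusted p under 0.001, 9 fell outside the 24, each with a mean under 5 ppm. Pnmt, which converts noradrenaline to adrenaline, had 6, 12 and 30 normalised counts as lowest, median and highest in High females, against 14, 31 and 61 in Low females. Its log2 difference was -0.94 ± 0.19 in females (SE; adjusted p = 0.243 in limma) and -0.52 in males. Mybphl, a myosin binding protein gene, and Aox4, an aldehyde oxidase gene, chosen for mention after their values were seen, had means of 45.8 and 30.5 in High females, against 10.9 and 11.8 in Low females. Both are near the lower limit of the test.

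**Figure D2:**
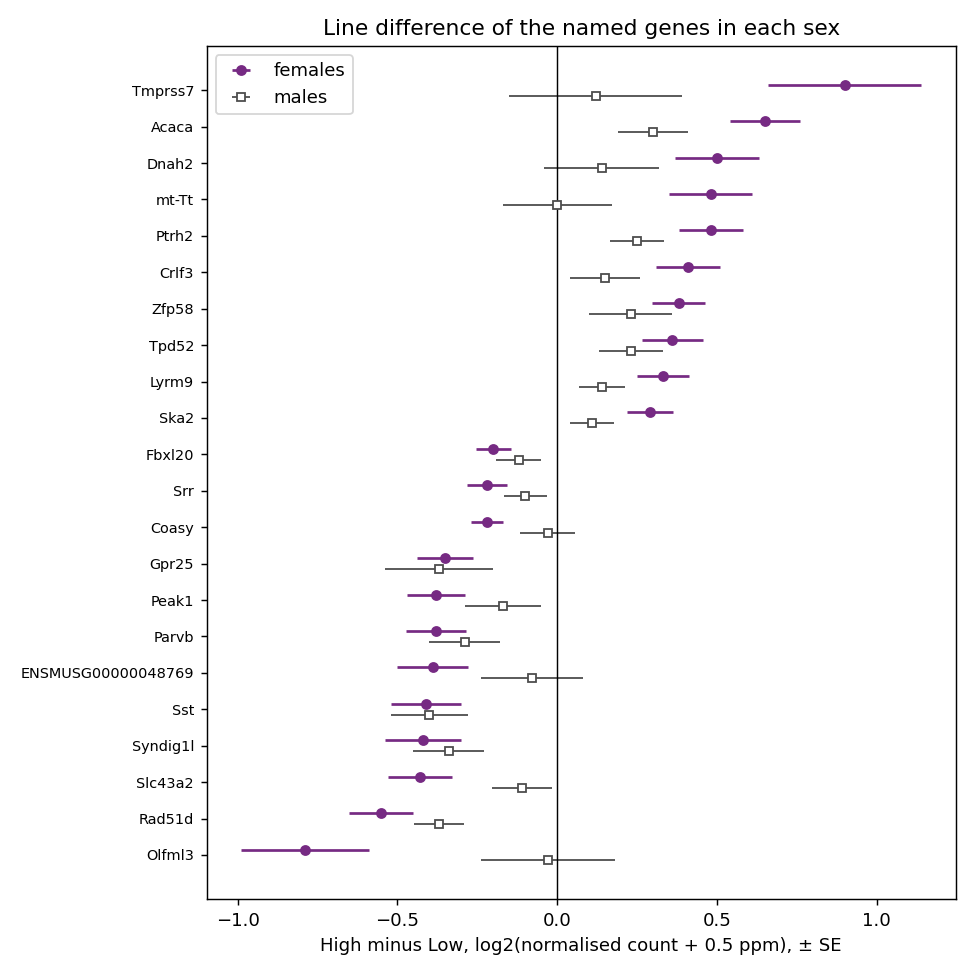
Log2 difference, High minus Low, with its SE, for 22 of the 24 named genes in females (filled circles) and in males (open squares); the 2 mitochondrial copies Gm13341 and Gm11408 are off this scale and are left out. Male values lie on the same side of 0 as the female ones, apart from mt-Tt, which is at 0.00 in males.

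The males were separate mice of the same lines, so they show which female differences recur. Among all tested genes, 57.7% had the same sign in both sexes. Among the 833 genes at an unadjusted p under 0.05 in females, 633 did (76%), and 131 also had an unadjusted male p under 0.05 in the same direction (15.7%, against 4.68% of all genes). Among the 28 genes at an unadjusted p under 0.001, 27 had the same sign (96.4%), and 11 had an unadjusted male p under 0.05. In males alone limma called no gene (0%), with 897 at an unadjusted p under 0.05 (5.84%). Male and female mice of a line may share families, which the labels do not give.

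No gene was called for a line difference that departed between the sexes (0% of 15350 in limma), and 368 were at an unadjusted p under 0.05 (2.4%). Fzd2, a Wnt receptor, had the smallest p. It averaged 114 ± 13.6 normalised counts in High females and 139 ± 18.6 in Low females, but 129 ± 16.8 in High males and 110 ± 17.2 in Low males (SD, n = 12 each). Ddit4, which restrains mTOR signalling and responds to glucocorticoids, averaged 390 ± 40.8 in High females and 448 ± 50 in Low females, and 442 ± 66.3 in High males and 394 ± 65.2 in Low males. Kif3a, a kinesin motor, differed by 0.07 on the log2 scale in females and -0.39 in males. All had an adjusted interaction p of 1.

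The low-p genes were not spread evenly over the genome. Chromosome 11 held 110 of its 1228 tested genes at an unadjusted p under 0.05 (8.96%), 58 higher and 52 lower in High females. Among all other tested genes, which include genes with no chromosome assigned, the share was 5.11%. Of the 28 genes at an unadjusted p under 0.001, 19 are also among the 24 named genes. Against 1228 of all 15370 genes tested, chromosome 11 held 13 of the 28 and 11 of the 24. Among them were Acaca, Ptrh2, Lyrm9, Crlf3, Ska2 and Dnah2, which were higher in High females, and Rad51d, Coasy, Slc43a2, Fbxl20 and Srr, which were lower. Their lowest listed exon starts lie between position 69234311 for Dnah2 and 100943879 for Coasy. Counted in bins of 10 Mb, the share was 19.8% of 167 genes between 70 and 80 Mb and 24.7% of 89 genes between 80 and 90 Mb, and it was 1.6% of 125 genes between 50 and 60 Mb and 3.1% of 129 genes between 110 and 120 Mb. In males the same bins held 6.59% and 14.6%, then 4.8% and 2.33%. The highest male bin was 40 to 50 Mb at 15.9%, where females had 4.55%. Over the whole chromosome the male share was 5.78%, against 5.84% of all genes in males, and in males chromosome 16 had 11.9%. Of the 110 genes, 95 had the same sign in males (86.4%, against 76% of all genes at this threshold in females). Neighbouring genes are not independent, and the bins were chosen after the values were seen. The other nuclear chromosomes ranged from 2.38% on chromosome 16 to 7.44% on chromosome 3, and the mitochondrial chromosome, counted with the others above, held 10 of 34 genes (29.4%).

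**Figure D3:**
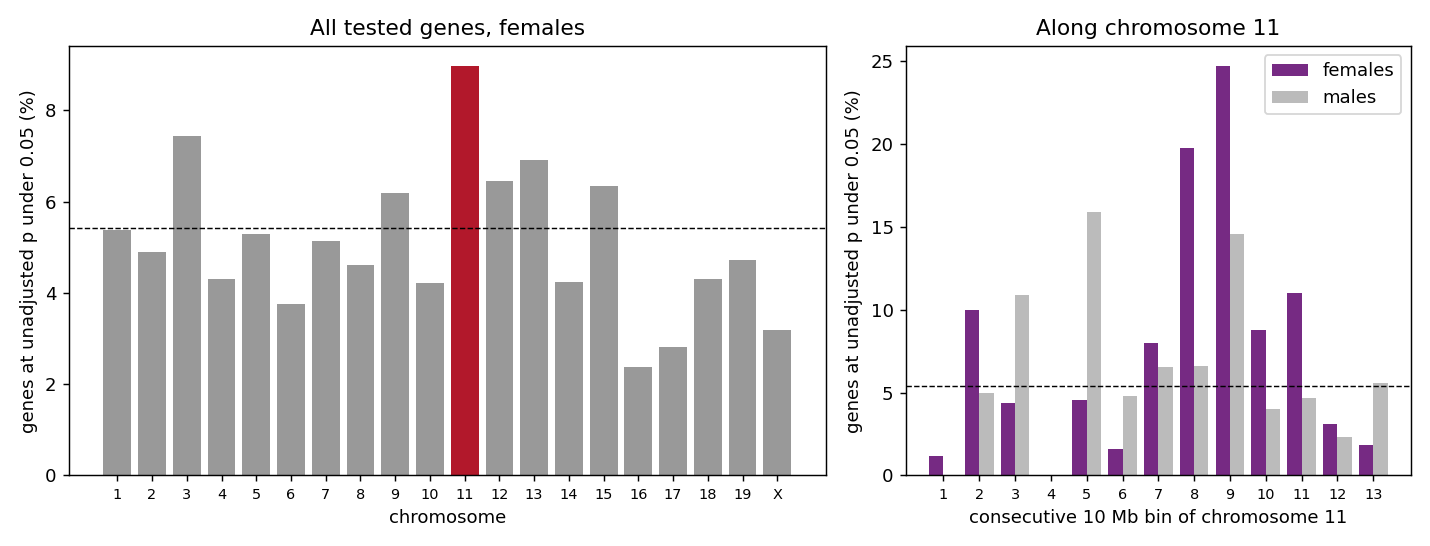
Percent of tested genes at an unadjusted p under 0.05 for High against Low females by chromosome (left), and in consecutive 10 Mb bins of chromosome 11 for females and males (right). The dashed line is the 5.42% over all genes in females; chromosome 11 stands at 8.96% and its bins 8 and 9 at 19.8% and 24.7% in females.

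Myelin genes formed the most uniform group. Of 16 tested genes of myelinating oligodendrocytes, the glia that wrap axons, all 16 were below 0 in High females and 12 were at an unadjusted p under 0.05 (75%, against 2.81% of all genes in that direction). None passed the adjusted threshold in limma. The median log2 difference was -0.29 and the range -0.5 to -0.1, against 0 for all genes. Opalin, a membrane protein of myelin, had 43, 91 and 139 normalised counts as lowest, median and highest in High females, against 90, 122 and 170 in Low females (log2 difference -0.50 ± 0.15, SE; unadjusted p = 0.00268). Mag, an adhesion protein of the axon-facing membrane, had 302, 648 and 835 in High females, against 609, 828 and 1017 in Low females, and 11 of 12 High females lay below the Low median. Mbp, the basic protein that compacts myelin, had 3965, 6400.5 and 9712 in High females, against 6214, 7968.5 and 9656 in Low females.

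The groups overlapped in every myelin gene. The summed level of the 16 genes ran from 12099 to 28015 in High females, with a median of 18795.5, and from 18123 to 28166 in Low females, with a median of 23574. Leaving out 1 mouse at a time kept all 16 below 0 and left 9 to 13 at an unadjusted p under 0.05. These genes vary together from mouse to mouse, so the 16 are not 16 separate observations. In bulk tissue, fewer oligodendrocytes, less of these RNAs per cell and dissections that took in less myelinated tissue cannot be told apart. None of these was tested. In males 13 of 16 were below 0, with a median of -0.10 and 1 at an unadjusted p under 0.05. The female difference was the more negative for 15 of 16, with interaction p-values from 0.0761 to 0.973, none under 0.05. Of 10 tested genes of oligodendrocyte precursors, 6 were above 0, none was at an unadjusted p under 0.05, and the median was 0.01.

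**Figure D4:**
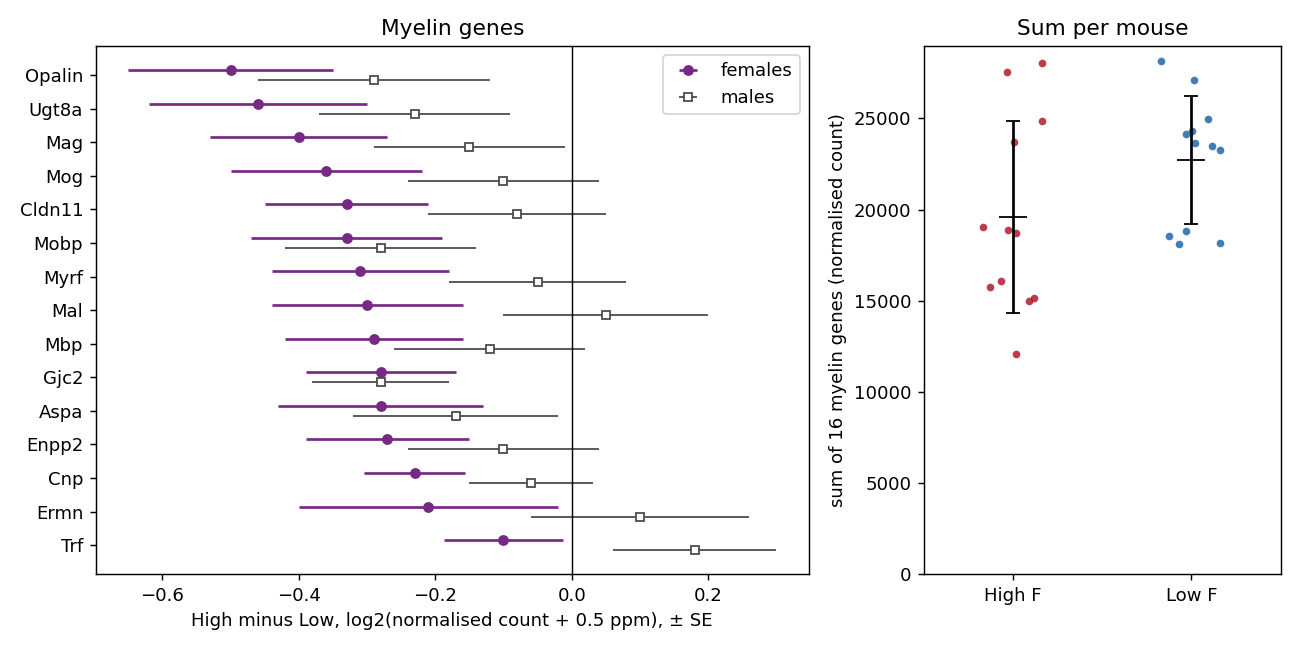
Left, log2 difference High minus Low with its SE for 15 of the 16 myelin genes in females (filled circles) and males (open squares). Right, the summed normalised count of the 16 genes per mouse, with mean ± SD; all 15 female differences drawn are below 0, and the sums overlap, at 12099 to 28015 in High females and 18123 to 28166 in Low females.

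Among interneuron genes, the peptide pair somatostatin and neuropeptide Y had the smallest p. Sst, an inhibitory peptide of low-threshold-spiking interneurons, had 1305, 1600 and 2087 normalised counts as lowest, median and highest in High females, against 1323, 2267 and 2814 in Low females. All 12 High females lay below the Low median, though only 1 lay below every Low female. The log2 difference was -0.41 ± 0.11 in females (SE; adjusted p = 0.518 in limma) and -0.40 ± 0.12 in males. Npy, made by the same interneurons, had 750, 1049.5 and 1518 in High females, against 804, 1359 and 1805 in Low females (log2 difference -0.33 ± 0.12, SE; unadjusted p = 0.00961). Nos1, the nitric oxide synthase of these cells, differed by -0.17 ± 0.13 (SE), and Chodl by -0.19 ± 0.14, both with unadjusted p-values over 0.05. Lhx6, their developmental transcription factor, differed by -0.18 ± 0.075 (SE; unadjusted p = 0.0209). Over the 17 tested interneuron genes, 12 were below 0, 4 were at an unadjusted p under 0.05, all lower (23.5%, against 2.81% of all genes in that direction), and the median was -0.17. In males the median was 0.02.

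Spiny neuron genes sat close to the Low level by list median, with the D1 and D2 lists leaning opposite ways. Of 11 tested D1 genes, 10 were above 0 with a median of 0.06. Of 12 D2 genes, 11 were below 0 with a median of -0.12. Over all genes tested, 48.8% were above 0. In males 9 of the D1 genes were above 0 (median 0.09) and 3 of the D2 genes (median -0.09). Drd1, the D1 receptor, had 2113, 2574 and 2909 normalised counts as lowest, median and highest in High females, against 2178, 2722.5 and 3006 in Low females. Drd2, the D2 receptor, had 2613, 3440 and 4271 in High females, against 2755, 3807.5 and 4615 in Low females (log2 difference -0.13 ± 0.077, SE; unadjusted p = 0.0988). Pdyn, the dynorphin precursor of D1 neurons, had 6506, 9447.5 and 10806 in High females, against 6635, 7628.5 and 10269 in Low females (unadjusted p = 0.0553). Penk, the enkephalin precursor of D2 neurons, differed by -0.02 ± 0.067 (SE). Of the 12 D2 genes, none reached an unadjusted p under 0.05. Of the D1 genes only the neurokinin receptor Tacr3 did, at 0.0453 (9.09% of the list, against 5.42% of all genes).

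Of 20 genes shared by both spiny neuron types, 16 were below 0, with a median of -0.02. Syndig1l, a membrane protein related to a synapse differentiation factor, had 970, 1270.5 and 1638 normalised counts as lowest, median and highest in High females, against 1289, 1577 and 2603 in Low females. It differed by -0.42 ± 0.12 (SE; adjusted p = 0.533 in limma) and by -0.34 ± 0.11 in males. Among 13 shell and ventral striatal genes, 10 were above 0 with a median of 0.13 and none at an unadjusted p under 0.05. Nts, the neurotensin precursor, had 381, 825 and 1203 in High females, against 350, 536.5 and 1004 in Low females (unadjusted p = 0.113).

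Ethanol acts on GABA-A receptors, and their subunits were read next. Gabrd, the delta subunit of extrasynaptic receptors, had 1602, 2008 and 2454 normalised counts as lowest, median and highest in High females, against 1485, 2621.5 and 3429 in Low females. Its log2 difference was -0.31 ± 0.099 in females (SE; adjusted p = 0.638 in limma) and -0.08 in males. Gabrg3, a gamma subunit, had 800, 1011 and 1341 in High females, against 345, 854.5 and 1203 in Low females (0.39 ± 0.16, SE; unadjusted p = 0.0218). The other 14 tested GABA and glycine receptor genes had unadjusted p-values over 0.05, and the list median was 0.01. The 2 under it were 12.5% of the list, against 5.42% of all genes. Of 22 glutamate receptor genes none was at an unadjusted p under 0.05, and the range of differences was -0.16 to 0.15.

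Genes of dopamine, ethanol and monoamine handling gave few differences. At an unadjusted p under 0.05 were 6.67% of the dopamine genes and 8.33% of the alcohol and acetaldehyde genes, against 5.42% of all genes. Of 15 dopamine genes, Ddc, the decarboxylase that makes dopamine, was at an unadjusted p of 0.0339, with 286, 394 and 486 normalised counts as lowest, median and highest in High females, against 182, 283.5 and 509 in Low females. Of 12 genes of alcohol and acetaldehyde metabolism, Aldh1a1, an aldehyde dehydrogenase, was at 0.047, with a log2 difference of 0.33 ± 0.16 (SE). Aldh2, the mitochondrial aldehyde dehydrogenase, differed by -0.05 ± 0.069 (SE) and Cat, catalase, by 0.10 ± 0.095. Of 23 serotonin, adrenergic and acetylcholine genes, 4 were at an unadjusted p under 0.05, all lower (17.4%, against 2.81% of all genes in that direction). They were Pnmt, the serotonin receptor genes Htr7 and Htr3a, and the nicotinic subunit gene Chrna4. Opioid and other neuropeptide genes had a median of -0.02, with 3 of 31 at an unadjusted p under 0.05 (9.68%, against 5.42% of all genes).

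Genes of potassium channels, of sodium, calcium and HCN channels and of cadherins lay within -0.41 to 0.45 on the log2 scale, with list medians of -0.01, -0.02 and -0.03 in the order named. At an unadjusted p under 0.05 were 3 of 32 potassium channel genes (9.38%), none of 29 in the second list and 3 of 32 cadherin genes (9.38%). Extracellular matrix genes had 2 of 31 (6.45%) and a median of -0.01. Over all genes this share was 5.42%. Immediate early genes, which report recent neuronal activity, had 11 of 23 above 0 with a median of -0.01 in females, and 21 of 23 above 0 with a median of 0.17 in males. None was at an unadjusted p under 0.05 in females. Circadian genes had a median of 0.01 with none of 21 at that threshold. Genes that respond to glucocorticoids had a median of -0.05 with 1 of 14 (7.14%), Ddit4. Receptors for steroids, prolactin and the nonapeptides, which bear on a comparison of females, had a median of 0.02 over 14 genes, with none at an unadjusted p under 0.05. X-linked genes that escape inactivation had a median of 0.03 over 11 genes, also with none.

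Interferon-responsive and class I histocompatibility genes leaned upward without a call. Of 25 tested genes 23 were above 0 in High females, with a median of 0.14, and 3 were at an unadjusted p under 0.05, all higher (12%, against 2.61% of all genes in that direction). High female replicate 2 had the highest summed level, 5820, against a High median of 3368.5 and a Low range of 2834 to 3732. Without it, 20 of 25 were above 0 and the median was 0.10. Lgals9, a galectin that binds sugars on immune cells, had 54, 74.5 and 98 normalised counts as lowest, median and highest in High females, against 13, 46 and 81 in Low females. Its log2 difference was 0.92 ± 0.20 (SE; adjusted p = 0.257 in limma), and it too lies on chromosome 11. Ifitm3, which blocks virus entry, differed by 0.38 ± 0.12 (SE; unadjusted p = 0.0051). H2-K1, a class I heavy chain, differed by 0.14 ± 0.29, with 555 as the highest High female and 230 as the highest Low female.

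No vascular gene passed the adjusted threshold, and 7 of 15 were above 0 and 8 below. Acta2, the actin of smooth muscle, had 108, 336 and 706 normalised counts as lowest, median and highest in High females, against 65, 175.5 and 350 in Low females (log2 difference 0.78 ± 0.28, SE; unadjusted p = 0.00912). Tagln and Myh11, which bind actin and drive contraction, differed by 0.49 ± 0.20 and 0.55 ± 0.24 (SE), in that order. Kcnj8, a potassium channel of pericytes, differed by -0.33 ± 0.12 (SE; unadjusted p = 0.00904). In all, 4 of 15 vascular genes were at an unadjusted p under 0.05 (26.7%, against 5.42% of all genes), 3 higher and 1 lower, and the list median was -0.05. In males Acta2, Tagln and Myh11 differed by 0.08, 0.05 and 0.18. Astrocyte genes had a median of 0.03 with none of 14 at an unadjusted p under 0.05. Microglia genes had -0.08 with 1 of 14 (7.14%, against 5.42% of all genes). Markers of tissue next to the shell were also read. Medians were 0.01 for cortical pyramidal neurons (0 of 5 at that threshold) and -0.01 for septum and diencephalon (1 of 8, 12.5%). They were 0.08 for meningeal fibroblasts (0 of 8) and 0.04 for ependyma and choroid plexus (1 of 6, 16.7%). All 5 blood genes were above 0, with a median of 0.18 and none at that threshold.

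Some transcripts were high in some mice and nearly absent in others. Such a pattern is read from the spread between mice. limma on the absolute deviations from the group median called 8 genes (0.052% of 15370), all more variable in High females. They were Gm13339, Gm13340, Gm13341, Gm11407, Gm11408, mt-Nd3, mt-Tg and Gm12155. At an unadjusted p under 0.05 there were 500 genes (3.25%). Gm11408, mt-Tg and Gm12155 reached at most 13, 2 and 3 normalised counts in Low females, under 1 ppm. They thus entered the test through High females alone. Gm11407 passed 1 ppm only in Low female replicates 1 and 3, at 15 and 16, so it too needed High females to reach 6 libraries. A transcript present only in fewer than 6 Low females could not enter, so the shared direction is partly set by the filter. Mitochondrial DNA is inherited from the mother, and nuclear chromosomes carry old copies of parts of it. Gm13341 on chromosome 2 is annotated as a pseudogene that copies the mitochondrial gene mt-Co2, which encodes a subunit of cytochrome c oxidase. The stretches below show why reads can pass between the 2 transcripts. They are from GENCODE M21 transcripts (GRCm38), 5′ to 3′, at chr2:22587843-22587962 on the minus strand and chrM:7013-7132 on the plus strand, with capitals at the bases that differ.
Gm13341: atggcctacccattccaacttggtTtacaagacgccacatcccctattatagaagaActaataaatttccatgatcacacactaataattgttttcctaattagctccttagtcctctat
mt-Co2: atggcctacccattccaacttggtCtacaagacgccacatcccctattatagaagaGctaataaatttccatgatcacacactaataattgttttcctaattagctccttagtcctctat
Counted from 1 at the start of this stretch, with the mitochondrial base first, the differences are C25T and G57A. Over 672 aligned bases, 16 differed (97.6% identity), and 54% of the 25-base words of Gm13341 occur in mt-Co2.

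Gm13341 had 23781 to 31365 normalised counts in 6 High females, replicates 2, 3, 5, 8, 11 and 12, and 33 to 254 in the other 18 females. The same 6 mice held Gm13339 at 18813 to 26281, against 13 to 165 in the other 18, and Gm13340 at 93951 to 118994, against 108 to 901. Gm11407 and Gm11408 on chromosome 4 were at 1235 to 1743 and at 824 to 1286 in those 6 mice, and at no more than 16 and 13 in the other 18. In transcript sequence Gm13339 shares 37.9% of its words with mt-Nd2 and Gm13340 shares 53.7% with mt-Co1. Because of these shared sequences the counts of the copies and of the mitochondrial genes are uncertain. As a line difference, Gm13341 differed by 4.39 ± 1.2 and Gm11408 by 3.45 ± 0.91 on the log2 scale (SE), with adjusted p-values of 0.505 for both in limma. The pattern was not confined to females. Gm13341 had 51, 66 and 30167 as lowest, median and highest in High males, against 34, 59 and 121 in Low males.

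The mitochondrial transfer RNAs mt-Tg of glycine and mt-Ty of tyrosine showed this split or its mirror, and mt-Tt of threonine did not. All are listed as short separate genes. They are given as GENCODE M21 lists them (GRCm38), at chrM:9391-9458 on the plus strand for mt-Tg, chrM:5260-5326 on the minus strand for mt-Ty and chrM:15289-15355 on the plus strand for mt-Tt.
mt-Tg: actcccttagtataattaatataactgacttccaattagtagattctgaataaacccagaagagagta
mt-Ty: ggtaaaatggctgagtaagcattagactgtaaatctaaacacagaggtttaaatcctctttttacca
mt-Tt: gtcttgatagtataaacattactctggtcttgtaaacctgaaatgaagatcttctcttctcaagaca
mt-Tg was at 138 to 273 normalised counts in the same 6 High females and at 0 to 3 in the other 18. mt-Ty was at 0 to 6 in those 6 and at 140 to 325 in the other 18. Whether such values reflect the transfer RNAs themselves or reads of neighbouring mitochondrial transcripts was not tested. mt-Tt did not split. It had 124, 167.5 and 326 as lowest, median and highest in High females, against 99, 127.5 and 194 in Low females, a log2 difference of 0.48 ± 0.13 (SE; adjusted p = 0.505 in limma). In males mt-Tt differed by 0.00. High males held mt-Tg at 1, 2 and 288 in the same order, against 0, 0.5 and 2 in Low males. For mt-Ty the values were 4, 176 and 300 in High males, against 152, 273 and 386 in Low males.

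Of the 13 mitochondrially encoded protein genes, 4 were at an unadjusted p under 0.05 (30.8%, against 5.42% of all genes), 2 higher and 2 lower, and the median was 0.01. mt-Nd3, a complex I subunit, had 9, 93 and 300 normalised counts as lowest, median and highest in High females, against 16, 18 and 23 in Low females. Its 6 highest values, 161 to 300, were those of the same 6 High females, and the other 18 females were at 9 to 25. In transcript sequence 98.1% of its words occur in Gm28438, so its counts are uncertain. mt-Co1 had 61016, 109720 and 175278 in High females, against 103654, 134138 and 186406 in Low females. mt-Cytb, of complex III, had 110573, 133718 and 162491 in High females, against 88154, 111663.5 and 174965 in Low females. Gm8172, a processed copy that shares 80.2% of its words with the ribosomal protein gene Rps6, split the other line. It was at 371 to 797 in 5 Low females, replicates 3, 5, 6, 7 and 10, and at 0 to 3 in the other 19 females. It did not reach 1 ppm in 6 female libraries, so neither the line test nor the spread test included it. Low males had Gm8172 at 0, 461.5 and 955 as lowest, median and highest, against 0, 0 and 4 in High males.

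**Figure D5:**
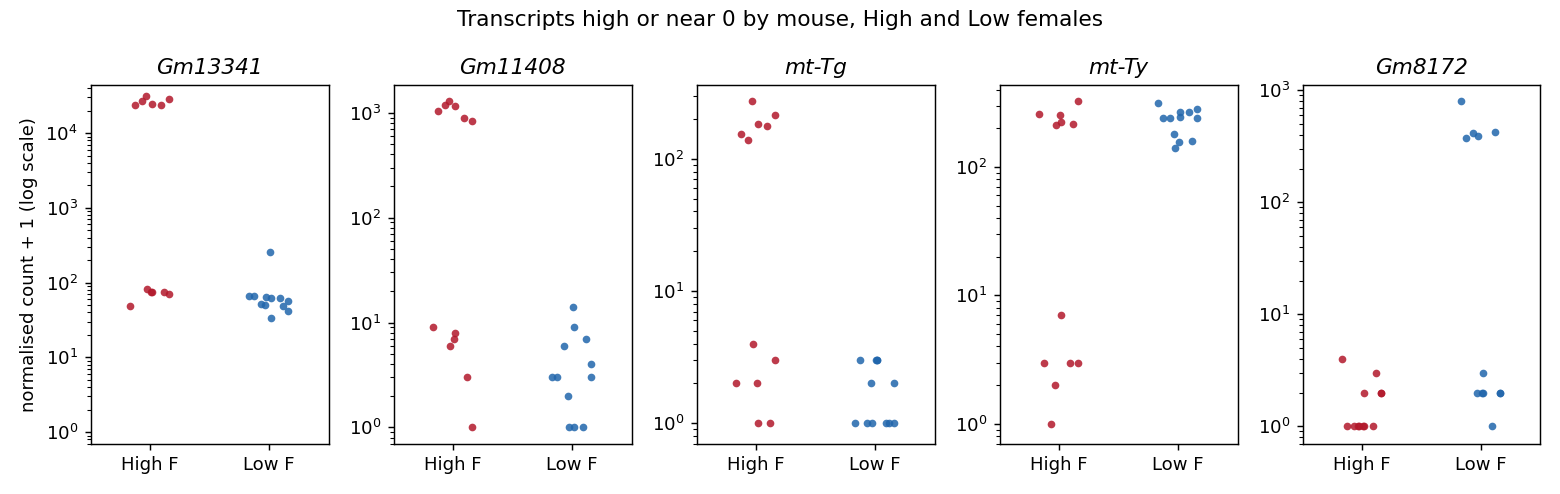
Normalised count + 1 per mouse (log axis) of 5 transcripts in 12 High females and 12 Low females. Gm13341, Gm11408 and mt-Tg are high in 6 High females and low in the other 18 mice, mt-Ty shows the mirror pattern, and Gm8172 is high in 5 Low females.

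Exon usage asks whether the share of single exons within a gene differed between the lines. limma's diffSplice called 77 of 14760 genes (0.522%) and 72 of 144429 exons (0.0499%), but in 70 of the 77 the exon with the smallest p had fewer than 20 normalised counts on average in both groups. In 65 of them that exon was lower in High females and in 39 it was the first exon. When each exon was tested against the rest of its gene with a spread of its own, no gene was called (0% of 14760 in limma), and 7233 exons were at an unadjusted p under 0.05 (5.01%). Tubg2, a gamma-tubulin on chromosome 11, had the smallest p in the first test. Its exon 9 of 11 had 14, 50 and 96 normalised counts as lowest, median and highest in High females, against 6, 17 and 55 in Low females, while its other exons summed to 542 ± 66.3 in High females and 594 ± 80.3 in Low females (SD, n = 12 each). In males that exon averaged 38.9 ± 24.3 in High and 21.9 ± 18.5 in Low mice. In transcript sequence 27.3% of Tubg2 words occur in Tubg1. Nup54, Ngdn, 4933434E20Rik and Nubp2 were called on a first exon with means under 4 normalised counts in both groups, and the unnamed gene ENSMUSG00000091793 on an exon with 29.3 ± 5.47 in High females and 19.1 ± 12.2 in Low females.

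The last exons of multi-exon genes took 54.9 ± 2.18% of the summed exon values in High females and 53.9 ± 2.19% in Low females (SD, n = 12 each). The difference of 1.08 percentage points had a two-sided permutation p of 0.24 over 100000 resamples. The share ran from 51.2 to 59.3% in High females and from 49.2 to 57.7% in Low females. Its part in the differences seen in the last exons of Acaca, Ptrh2, Lyrm9 and Tpd52 was not tested.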

How the data were processed

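The deposited gene and exon values are a score, because the authors normalised their read counts and rounded them, per the titles of these tables and their whole-number values. No count model was therefore fitted and no counting interval is given. The submitters' processing notes name CASAVA, FastQC, STAR (version 2.4.0), R (version 3.0.2) and edgeR (version 3.4.2), with mm9 as the build. How reads were counted and normalised, with which annotation and strand setting, is not given in the sources used here, so overlapping and antisense genes cannot be separated. Each column was matched to a library by its sample number.

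The line comparison used limma 3.58.1 under R 4.3.3 (mean-variance trend, Benjamini-Hochberg adjustment) on log2(value + 0.5 ppm), keeping genes that reached 1 ppm in 6 or more female libraries. Fold changes are on this scale and understate the change of low genes. The interaction used all 48 libraries. Exons that reached 0.1 ppm in 6 or more libraries went into diffSplice (pseudocount 0.05 ppm, Simes p per gene), and afterwards into a test with a spread per exon, because on simulated data the first test gave false calls among exons of low value. Symbols came from GENCODE M21 by Ensembl identifier, which matched 32897 of 37620 genes. Positions are mm9 starts of the deposited exons, or GRCm38 where sequences are given. Named genes were the called genes and then those of smallest p, up to 12 per direction at 5 ppm or more, and the 2 members of smallest p of each of 34 lists. Other genes of the lists are given for their role. The members and lists were chosen with earlier results of these data known. Transcripts were compared by shared words of 25 bases. Alternatives changed the pseudocount, the filter, the scaling, the trend, weights and the libraries. Among 276 pairs of female libraries, the closest had a chi-square of 9.19 per gene, taken as if the deposited values were counts. No 2 female columns were therefore identical.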

Additional observations from a re-analysis of the deposited data

How the results depend on the processing

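The 1 gene called between High and Low females became 0 with no minimum on low values, with columns rescaled to one total, with no mean-variance trend, with array quality weights and without the least correlated library, and 4 with all 48 libraries in the fit (Acaca, Rad51d, Ptrh2 and Rad51c). Leaving out each mouse in turn gave 0 to 3. The cause was not tested. Of 236 recomputed differences of named genes, 229 kept their direction and their side of the threshold, 5 for Acaca lost the call, 2 gained it and 0 reversed. The 77 genes called for exon usage became 320 with a pseudocount of 0.01 ppm, 5 with 0.2 ppm, 13 with exons at 0.5 ppm or more in 12 libraries, 16 with an F test and 0 with a spread per exon. The 8 genes called for spread became 1 at 5 ppm or more in 12 libraries, 3 without the least correlated library and 14 from the group mean. The interaction count was 0 under each alternative run. Rescaling moved the median of all genes by -0.01 at most. No paired analysis was possible because the labels number no mice in common between the lines. Values carry no depth, so low genes have no counting interval. The leave-one-out fits, the exon test with its own spread and the interferon count without High female replicate 2 were chosen after seeing the data.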
